A study of Sus scrofa with 10 samples.

Results

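RORA, RORB, THRB and NR3C2 are 4 of the 22452 genes counted in single cells and nuclei from the pig (Sus scrofa) entorhinal cortex, and they were chosen by name. They are also 4 of 47 nuclear receptor genes found in the count tables. The 10 libraries were labelled as 1 of E50 whole cells, 3 of E60 whole cells, 3 of E70 whole cells, 1 of adult whole cells, 1 of E70 nuclei and 1 of adult nuclei, where E50 is embryonic day 50. The fetuses were crossbred and came from a production farm. The labels give that source for the adult tissue as well, while the study's methods name sows killed for another purpose, and the study gives the age of the adult libraries in more than one way, so adult is used here as their label only. The labels name no treatment and no genetic change in any group. Whole cells were freed from fresh tissue with papain, while nuclei were released from frozen tissue and sorted, so the preparation and the storage of the tissue differ together between them. E50_1 was made from 3 pooled brains, E60_3 and E70_1 from 2 each and the other libraries from 1 each, as the labels give it. A p-value between stages below sets the difference against the spread between libraries. Between neuron classes of the same libraries, the main test sets it against how the class difference varies from library to library.

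Nuclear receptors are transcription factors that bind DNA through a pair of zinc fingers, and many of them respond to a small lipophilic ligand. RORA and RORB encode the retinoic acid receptor-related orphan receptors alpha and beta, monomer-binding factors that act on clock genes. RORA is needed for Purkinje cells of the cerebellum, and RORB is known as a gene of layer 4 cortical neurons and of photoreceptor development. THRB encodes the thyroid hormone receptor beta, which pairs with retinoid X receptors and is known for its part in hearing and in cone photoreceptors. NR3C2 encodes the mineralocorticoid receptor, which binds aldosterone and cortisol and is known in the brain from the hippocampus.

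In the pig genome Sscrofa11.1 all 4 are long genes. RORA spans 763.8 kb on chromosome 1 (110719004 to 111482807) and RORB 202.8 kb on the same chromosome (227573972 to 227776806). THRB spans 459.9 kb on chromosome 13 (10900716 to 11360587) and NR3C2 365.9 kb on chromosome 8 (80303172 to 80669050). None overlapped another protein-coding gene, while a pseudogene lies within RORA and a long noncoding RNA gene overlaps NR3C2. Reads from introns were counted, so the count of a long gene includes unspliced RNA.

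The first zinc finger of each receptor is shown because it holds the P-box, the stretch that reads the DNA half-site and sets apart the receptor subfamilies. The 69 bases run from the codon of the first zinc-binding cysteine to the end of the P-box, whose 15 bases are in capitals. They were read from the annotated coding exons of RefSeq on Sscrofa11.1, 5′ to 3′ on the coding strand.
RORA: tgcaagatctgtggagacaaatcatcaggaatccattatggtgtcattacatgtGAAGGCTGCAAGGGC
RORB: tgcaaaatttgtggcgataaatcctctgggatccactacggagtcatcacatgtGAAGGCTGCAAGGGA
THRB: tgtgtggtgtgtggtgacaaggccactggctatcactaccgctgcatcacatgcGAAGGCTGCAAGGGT
NR3C2: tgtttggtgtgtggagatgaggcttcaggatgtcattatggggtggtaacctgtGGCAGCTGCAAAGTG

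RORA and RORB share 57 of the 69 bases and encode the same amino acid at all 23 codons. THRB encodes the same amino acid as either ROR gene at 16 of 23 codons, and NR3C2 does so at 14 of 23 for the ROR genes and 13 of 23 for THRB. The P-box bases of RORA, RORB and THRB differ in the last base of the stretch, while NR3C2 carries a different P-box, that of the steroid receptors. The stretch lies on the plus strand in coding exons 3 and 4 of 11 in RORA (chr1:111436850-111454979) and in RORB (chr1:227706825-227711715). It lies on the minus strand in coding exons 4 and 5 of 9 in THRB (chr13:10938032-10943813), and within coding exon 2 of 8 on the plus strand in NR3C2 (chr8:80496076-80496144).

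The libraries held 28229 cells or nuclei, from 493 in E70_1 to 8171 in E60_1. Their depth ranged from 2336865 UMIs (unique molecular identifiers, counted transcripts) in the adult nuclei to 55755512 in E50_1, and the median per cell from 690 in the adult nuclei to 9403 in E70_2. Between 0 and 57 cell barcodes were shared by any pair of libraries. A list of 6 telencephalon genes checked the labelled tissue. Their summed level was 7.5 CPM (UMIs of a gene scaled to a total of 1e+06) in E60_1 and 4.09 in E60_2, against 19.7 to 406.7 in the other 8, and the cortical neuron gene NEUROD6 was at 2.91 and 0.275 CPM there against 22.3 to 264.7 CPM in the other 5 fetal whole cell libraries. No cortical excitatory-like, interneuron-like or intermediate progenitor-like group of 20 cells was found in E60_1 or E60_2. Among the E70 whole cells, E70_1 and E70_2 stood apart from E70_3. HR, a corepressor gene of the thyroid hormone list, was at 26.9, 27.6 and 3.48 CPM in E70_1 to E70_3, and when each library was clustered on its own PRLR and GCNT1 were among the leading genes of most clusters of E70_1 and E70_2 and of none of E70_3. The comparison of stages is also given without either pair.

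All 4 genes were detected in all 10 libraries (the plot of CPM by library). RORA was at 43.2 CPM in E50_1, at 74.8, 82.8 and 78.7 CPM in E60_1 to E60_3, at 48.9, 27.8 and 70.2 CPM in E70_1 to E70_3 and at 136.1 CPM in the adult whole cells. The adult library was the highest for RORA and E70_2 the lowest. RORB was at 76.5 CPM in E50_1, at 81.6, 78.5 and 65.9 CPM at E60, at 250.5, 47.2 and 143.6 CPM at E70 and at 50.4 CPM in the adult. The 3 E60 libraries were close to each other for RORB, while the 3 E70 libraries held both the highest and the lowest value of the whole cells.

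THRB was at 44.1 CPM in E50_1, at 209.0, 111.3 and 87.7 CPM at E60, at 152.7, 133.5 and 103.2 CPM at E70 and at 147.4 CPM in the adult. NR3C2 was at 53.2 CPM in E50_1, at 119.4, 106.3 and 82.4 CPM at E60, at 110.9, 72.4 and 90.2 CPM at E70 and at 150.7 CPM in the adult. E50_1 was the lowest of the 8 whole cell libraries for both genes. In nuclei the levels of RORA, RORB, THRB and NR3C2 were 56.3, 271.9, 286.8 and 335.4 CPM at E70, and 70.6, 39.4, 332.1 and 335.9 CPM in the adult. THRB and NR3C2 were higher in both libraries of nuclei than in any of the 8 whole cell libraries, and RORA in neither.

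**Figure D1:**
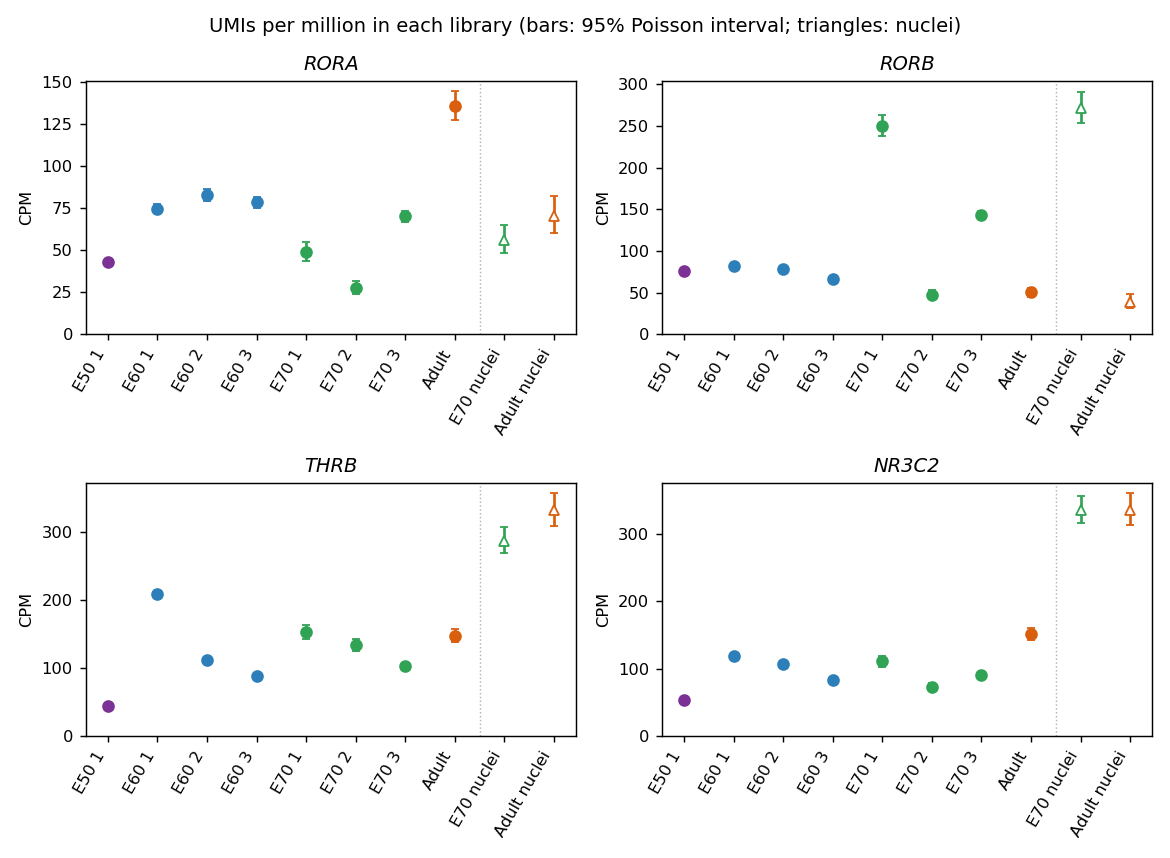
Level of RORA, RORB, THRB and NR3C2 (CPM, vertical axis) in each of the 10 libraries (horizontal axis), with circles for whole cells, triangles for nuclei and bars for the 95% Poisson interval, which covers counting error only. RORB ranged from 47.2 to 250.5 CPM within the 3 E70 whole cell libraries, and THRB and NR3C2 were highest in the nuclei.

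The next question was which cells carry these transcripts. Cells were grouped into 49 clusters without using the 89 genes of the receptor, clock and hormone lists, and a cluster was named after a cell class, as X-like, from marker genes. Levels are given as CPM of a class within a library, for classes with at least 20 cells, and means over whole cell libraries are given with their SD. Cells of clusters given no class were left out of the order of classes. Cells of 1 library share their source and are not replicates.

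RORA was highest in Purkinje-like cells, a class of cerebellar neurons named from markers such as CA8 and CALB1 (the plot of levels by cell class). Its level there was 537.4 CPM in E50_1 (136 cells) and 565.5 CPM in E60_1 (90 cells), and no other library had 20 such cells. Vascular-like cells followed with 167.8 ± 96.3 CPM (SD, n = 6 libraries, 98.9 to 346.4 CPM), then fibroblast-like cells with 109.9 ± 54.2 CPM (n = 4) and astrocyte and radial glia-like cells with 108.9 ± 39.4 CPM (n = 6). The Purkinje-like values lay above the whole vascular-like range, while the ranges of all later neighbours in the order overlapped. Cortical excitatory-like cells, at 16.8 ± 8.23 CPM (n = 5), were second to last, ahead of erythroid-like cells at 8.97 ± 9.17 CPM (n = 7). Purkinje-like cells were 2.47% of the cells of E50_1 and held 30.5% of its RORA UMIs. When E60_1 was clustered on its own, 2 clusters were named Purkinje-like, 100 cells with a RORA level of 518 CPM and 295 cells, mostly GABAergic without DLX in the merged clusters, with 106 CPM, which gave 178.9 CPM over both.

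In the adult whole cells most RORA UMIs lay in vascular-like cells. These cells, named from endothelial and mural markers such as PECAM1 and PDGFRB, were 132 of 737 cells (17.9%), with 26.6% of all UMIs. They held 67.6% of the RORA UMIs, at 346.4 CPM against 98.9 to 203.0 CPM in the 5 fetal libraries with 20 such cells. The class is made of several clusters, which the stages fill differently. In the cluster led by APOA1 and MED15, with CD93, RORA was at 422.8 CPM in 66 adult cells (470 UMIs) against 77.6 to 250.1 CPM in the 5 fetal libraries. In the cluster led by ITIH4 and ACTA2, a gene of mural cells, it was at 58.4 CPM in 52 adult cells (20 UMIs) against 59.3, 80.8 and 105.5 CPM in E50_1, E60_1 and E60_2. Of these clusters, the higher adult level thus lay in the former and not in the latter. They did not hold all 669 RORA UMIs of the adult vascular-like cells. When the adult library was clustered on its own, 79 cells, all vascular-like in the merged clusters, held 649 RORA UMIs at 412 CPM. A further 25 adult cells in a cluster led by CD52 and LYZ, which was given no class, had a RORA level of 550.1 CPM (95% Poisson interval 427.2 to 697.3). This cluster was picked after its value was seen. Without vascular-like and erythroid-like clusters the adult RORA level was close to that of E70, as given further below.

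RORB was highest in 1 cluster named photoreceptor- or pineal-like, which was led by RCVRN, GNB3 and SIX6 and rested on 3 detected markers of its class. It stood at 999.3 CPM in E50_1 (147 cells), 1176 CPM in E70_1 (32 cells) and 1612 CPM in E70_3 (99 cells), all above the highest astrocyte and radial glia-like value of 378.8 CPM. Those astrocyte and radial glia-like cells came next with 178.6 ± 103.1 CPM (n = 6), the adult library being the highest of them. From there on the ranges of neighbouring classes overlapped down to intermediate progenitor-like cells, and cortical excitatory-like cells (71.1 ± 21.7 CPM, n = 5) and interneuron-like cells (69.0 ± 22.1 CPM, n = 5) were side by side. Vascular-like cells had 19.2 ± 8.57 CPM (n = 6), and oligodendrocyte-like cells had 13.7 and 8.59 CPM in E60_1 and the adult. The order at the top and at the bottom thus differed between RORA and RORB, with vascular-like cells second for RORA and 14th of 16 classes for RORB.

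The photoreceptor- or pineal-like cells held much of the RORB of their libraries. They were 6.49% of the cells of E70_1, with 17.5% of all its UMIs, and held 82.0% of its RORB UMIs. In E50_1 and E70_3 they held 28.3% and 27.2% of the RORB UMIs, with 2.17% and 2.42% of all UMIs. In E70_1 the 32 cells held 1104155 UMIs at a median of 5996 UMIs per cell, so deep cells weigh heavily in their level. None of the 32 was called a doublet. NR2E3, the nuclear receptor gene of rod photoreceptors, was at 13.3 CPM in E70_1 against at most 0.856 CPM in the other 9 libraries, E50_1 and E70_3 among them. Clustered on its own, E50_1 held most of its cells of this class in a cluster of 153 led by SIX6 and VAX2, genes of the early eye, with no photoreceptor marker among the 8 leading genes, and RORB at 1001 CPM. Clustered on its own, E70_3 split these cells into 66 led by GNB3 and RCVRN with 1309 CPM of RORB and 34 led by RLBP1 and SIX6, genes of retinal glia and progenitors, with 2252 CPM. The same treatment of E70_1 named 96 further cells photoreceptor-like, of which most were intermediate progenitor-like in the merged clusters, and the level over both clusters was 629.9 CPM.

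**Figure D2:**
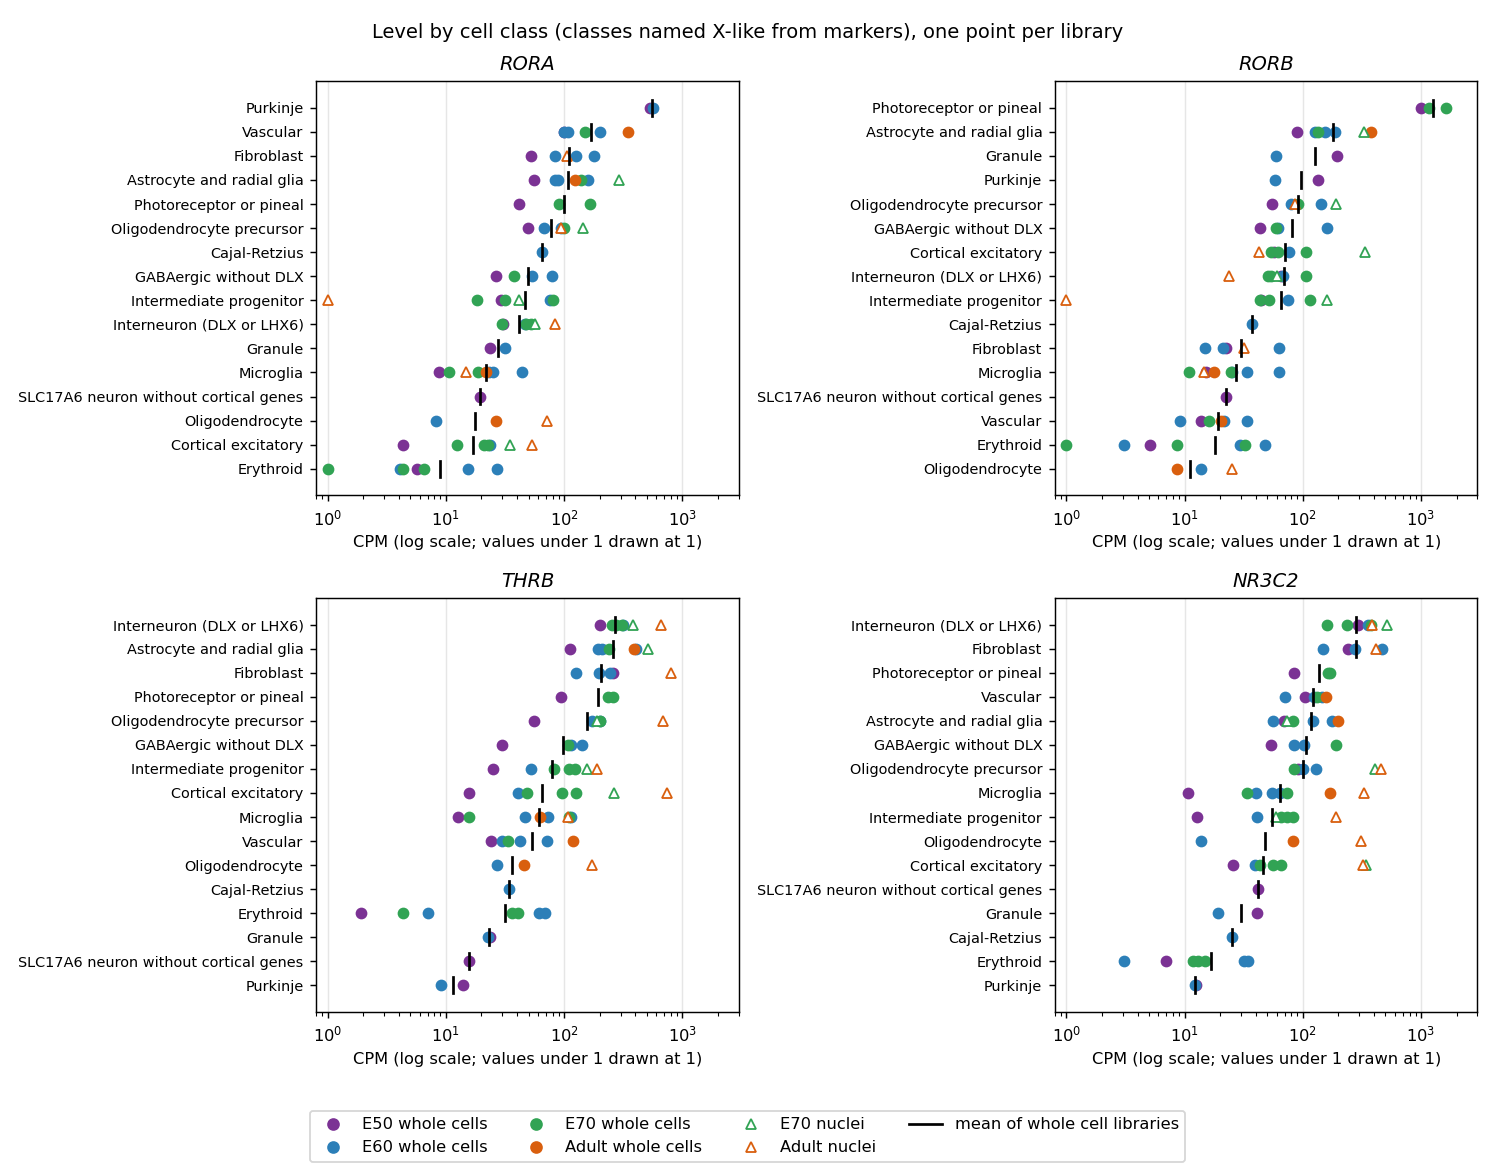
CPM on a log scale (horizontal axis) by cell class (vertical axis), one point per library with at least 20 cells of the class and a black line for the mean of the whole cell libraries. RORA is highest in Purkinje-like cells, RORB in photoreceptor- or pineal-like cells, and THRB and NR3C2 have interneuron-like cells on top.

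Among the named classes THRB was highest in interneuron-like cells, GABAergic cells named from markers such as the DLX genes and LHX6, with 270.7 ± 45.2 CPM (n = 5, 202.2 to 315.7 CPM). Second were astrocyte and radial glia-like cells at 259.0 ± 117.4 CPM (n = 6, 112.2 to 407.6 CPM) and fibroblast-like cells 206.9 ± 60.3 CPM (n = 4), and the ranges of these neighbours overlapped. Intermediate progenitor-like cells had 78.7 ± 40.7 CPM and cortical excitatory-like cells 65.4 ± 44.7 CPM (both n = 5), while Purkinje-like cells had the lowest level with 13.9 and 9.17 CPM. Among neighbours in the order, the ranges were apart at its end alone, from granule-like cells to SLC17A6 neuron-like cells (1 library) and on to Purkinje-like cells. In E60_1, the library with the highest THRB level of the whole cells, a cluster led by TTR, the thyroid hormone carrier transthyretin, and by the gene WDR49 held 902 cells and had a THRB level of 531.0 CPM (512.5 to 549.9). Its RORA, RORB and NR3C2 levels were 102.7, 109.9 and 173.6 CPM. This cluster was given no class and was picked after its value was seen. All cells of E60_1 without a class together held 38.0% of its THRB UMIs, with 16.1% of all its UMIs. When E60_1 was clustered on its own, THRB was highest in clusters of 389 cells (613 CPM) and 229 cells (574 CPM). C11orf88 and RSPH1 were among the leading genes of both, and TTR of neither.

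NR3C2 had interneuron-like cells (284.1 ± 89.1 CPM, n = 5, 159.5 to 375.3 CPM) and fibroblast-like cells (283.9 ± 135.3 CPM, n = 4, 147.1 to 469.2 CPM) on top, with overlapping ranges. Vascular-like cells had 121.8 ± 31.1 CPM (n = 6), cortical excitatory-like cells 46.0 ± 15.3 CPM (n = 5) and Purkinje-like cells 12.4 and 12.2 CPM. SLC17A6 neuron-like (1 library) and granule-like cells were the one pair of neighbours in the order with ranges apart. In microglia-like cells the adult libraries lay above the fetal ones. The NR3C2 level there was 169.3 CPM in the adult whole cells (229 cells) and 332.2 CPM in the adult nuclei (319 nuclei), against 10.7 to 73.9 CPM in the 6 fetal whole cell libraries with 20 such cells. With 1 adult library of each kind this has no replicate check, and different clusters held the cells, a C1QA and RGS1-led cluster with 210 of the 229 adult whole cells, an LY75 and CALCR-led one with 318 of the 319 adult nuclei, and clusters led by SPP1, FOLR1 and other genes in the fetal libraries.

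Free RNA gives some UMIs in cells that lack a transcript, so the level was also read in clusters of blood and immune cells. In the largest erythroid-like cluster (991 cells) the levels of RORA, RORB, THRB and NR3C2 were 1.11, 2.38, 4.28 and 1.90 CPM, and in the largest microglia-like cluster (709 cells) 6.71, 4.47, 11.9 and 17.7 CPM. They were not as low everywhere. A microglia-like cluster with 293 cells of E60_1 and 253 of E60_2 among its 552 cells had 61.3, 96.1, 208.4 and 98.6 CPM, and an erythroid-like cluster of 455 cells, nearly all of E60_1 and E60_2, had 43.4, 84.6, 162.0 and 80.4 CPM. All 4 genes were thus raised together in these 2 clusters, which were picked after their values were seen, and the part of free RNA or mixed droplets in them was not tested.

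Shares of cells with a UMI were read after drawing each cell down to 1000 UMIs, beside erythroid-like cells of the same library as the background. RORA was seen in 41.2% of Purkinje-like cells of E50_1 and 36.7% of those of E60_1 (97.1% and 84.4% before drawing down), against 0 of 166 erythroid-like cells (Clopper-Pearson upper bound 2.2%) and 1.10% of 818. The median depths were 10323 and 3254.5 UMIs in the Purkinje-like and 8453.5 and 4223.5 UMIs in the erythroid-like cells. RORB was seen in 59.2%, 56.2% and 71.7% of photoreceptor- or pineal-like cells of E50_1, E70_1 and E70_3 (98.6%, 87.5% and 99.0% before drawing down), against 0.602%, 8.33% and 0.0% of erythroid-like cells, the last being 0 of 104 with an upper bound of 3.48%. Median depths were 7484, 5996 and 5881 UMIs against 8453.5, 7527.5 and 8163.5 UMIs. In E70_3 NR3C2 was seen in 23.7% and THRB in 18.4% of interneuron-like cells (46.4% and 53.0% before drawing down), against 3.06% and 4.02% of cortical excitatory-like and 0.962% and 0.0% (upper bound 3.48%) of the 104 erythroid-like cells, at median depths of 5179.5, 7890 and 8163.5 UMIs. The shares of the leading class were above the erythroid-like share of the same library in each case. These classes were picked for their high level in the same cells, so this order followed from the choice and is no independent check.

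A test between stages was possible for E60 and E70, which had 3 whole cell libraries each. RORA had a mean of 78.8 ± 4.0 CPM at E60 and 49.0 ± 21.2 CPM at E70 (SD, n = 3 each), and every E70 library lay below every E60 library. The gap was narrow, with 70.2 CPM in E70_3 and 74.8 CPM in E60_1. The share of all genes that separated the stages in this way was not counted. In edgeR's quasi-likelihood test, with library sizes adjusted for composition, the difference E70 minus E60 was −0.89 on the log2 scale (SE 0.363), with a Benjamini-Hochberg adjusted p = 0.157. RORB had means of 75.3 ± 8.32 and 147.1 ± 101.7 CPM, with E70_2 below and E70_1 and E70_3 above the E60 libraries, and a log2 difference of 0.71 (SE 0.516, edgeR adjusted p = 0.36). THRB (means 136.0 and 129.8 CPM, 87.7 to 209.0 against 103.2 to 152.7 CPM) and NR3C2 (102.7 ± 18.8 against 91.2 ± 19.3 CPM) had log2 differences of −0.29 and −0.40 (edgeR adjusted p = 0.621 and 0.375), and their libraries overlapped between the stages.

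None of the 4 genes passed the threshold of 0.05, nor did any of the 16743 genes tested (0.0%). An unadjusted p under 0.05 was reached by 4916 genes, and DESeq2 called 2833. Without E60_3 edgeR called 5902 genes and without E70_3 it called 1570, while it called 0 without any of the other 4 libraries. Without E60_1 and E60_2, which left 1 E60 library assumed to vary like those of E70, the THRB difference was 0.56 and that of NR3C2 0.14, both in the other direction. An alternative without E70_1 and E70_2, chosen after seeing the data, left 1 E70 library assumed to vary like those of E60. Its differences were −0.345 for RORA, 0.74 for RORB, −0.59 for THRB and −0.38 for NR3C2. Without photoreceptor- or pineal-like clusters, an alternative chosen after seeing the data, the RORB difference was −0.31 (edgeR adjusted p = 0.59) and so also in the other direction. Within the 2 sequencing pools that held both stages the values were −0.16 and −0.60 for RORA, 1.11 and 1.61 for RORB, 0.23 and −0.45 for THRB and 0.13 and −0.11 for NR3C2, first for E60_3 with E70_3 and then for E60_1 with E70_1.

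The same comparison within a class could be made for microglia-like and erythroid-like cells. In microglia-like cells, RORA was at 24.8, 44.3 and 23.0 CPM in E60_1 to E60_3 and at 10.6 and 18.6 CPM in E70_1 and E70_3, and RORB at 33.7, 63.2 and 25.2 against 24.6 and 10.8 CPM. E70_2 had 19 such cells, under the minimum of 20, and entered no test. Its 9 RORA UMIs, in 3.14% of the UMIs of that library, stand for a level above those of E60_1 and E60_3, so the stages did not separate for RORA once it is counted. Its 2 RORB UMIs stand for a level below those of the E60 libraries, as in E70_1 and E70_3. Over the 5 tested libraries the log2 differences were −1.08 for RORA and −1.47 for RORB (edgeR adjusted p = 0.537 and 0.475). None of the 12521 genes tested passed by edgeR (0.0%), while 1354 did at an unadjusted p under 0.05. The microglia-like cluster of E60_1 and E60_2 described above enters the E60 values. In erythroid-like cells RORB, THRB and NR3C2 differed by −0.36, −0.34 and −0.14, none past the threshold, with RORA too low to be tested, and 3 of 2872 genes passed (0.104%). That count was 47, 11 and 811 without E60_1, E60_2 or E60_3 and 2, 0 and 1058 without E70_1, E70_2 or E70_3.

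The other genes of these pathways were counted from lists of their receptors, partners and targets. Between E60 and E70 none of the 43 tested nuclear receptors passed the threshold (median log2 difference −0.01), nor did any of 17 clock genes (median −0.34), of 22 thyroid hormone genes (median −0.10) or of 13 corticosteroid genes (median −0.16), beside a median of −0.06 over all genes tested. THRA, the thyroid hormone receptor alpha, was at 61.6, 42.6 and 62.2 CPM at E60 and at 45.5, 39.9 and 49.2 CPM at E70. The glucocorticoid receptor gene NR3C1, the closest relative of NR3C2, was at 159.3, 144.9 and 103.2 CPM at E60 and at 47.7, 34.7 and 95.4 CPM at E70, with a log2 difference of −1.41 (edgeR adjusted p = 0.124). Other list genes with large differences were also not past the threshold, each at an edgeR adjusted p = 0.122. They were HR (3.84), CIART, a clock repressor gene (−2.55), NR1H3, a liver X receptor gene (2.21), and the estrogen-related receptor gene ESRRG (2.05). NR1H3 was at 3.76, 2.28 and 5.98 CPM at E60 and at 26.8, 30.5 and 4.78 CPM at E70. Its E70_3 value lay within the E60 range. The retinoid X receptors, partners of THRB, did not share a direction, with log2 differences of −1.65 for RXRA, −0.30 for RXRB and 2.16 for RXRG (edgeR adjusted p = 0.122, 0.576 and 0.122). RXRA was at 11, 7.71 and 5.84 CPM at E60 and at 3.8, 2.88 and 2.55 CPM at E70. RXRG was at 4.75, 3.81 and 18.8 CPM at E60 and at 59.4, 45.8 and 26.4 CPM at E70, and ESRRG at 295, 233 and 793 against 2620, 2250 and 1100 CPM, E70_1 and E70_2 being the highest for RXRG and ESRRG. HSD11B2, whose enzyme inactivates cortisol and lets aldosterone act on NR3C2, was at 0 to 2.59 CPM in the 10 libraries, whereas HSD11B1, which regenerates cortisol, was at 25.6 to 76.8 CPM.

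The second test asked whether these genes differ between the main neuron classes of the E70 cortex. Interneuron-like and cortical excitatory-like cells of the same 3 libraries were compared with the library as a block (the plot of both classes at E70). NR3C2 was at 65.5, 55.6 and 43.6 CPM in cortical excitatory-like cells of E70_1 to E70_3 and at 234.9, 159.5 and 375.3 CPM in interneuron-like cells. THRB was at 96.1, 126.0 and 48.1 CPM against 273.2, 256.3 and 306.0 CPM. Both were higher in the interneuron-like cells of 3 of 3 libraries, with no overlap, and the difference was largest in E70_3. RORA was at 21.1, 12.4 and 22.7 CPM in cortical excitatory-like cells and at 47.9, 30.1 and 52.3 CPM in interneuron-like cells, again higher in 3 of 3.

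By edgeR's quasi-likelihood test, interneuron-like cells exceeded cortical excitatory-like cells by 2.15 on the log2 scale for NR3C2 (SE 0.26, adjusted p = 0.000303), by 1.69 for THRB (SE 0.253, adjusted p = 0.00148) and by 1.13 for RORA (SE 0.207, adjusted p = 0.00579). RORB was at 61.3, 53.7 and 106.7 CPM against 51.1, 54.0 and 106.3 CPM, each library having nearly the same level in both classes. Its difference was −0.14 (SE 0.177, edgeR adjusted p = 0.718). So 3 of the 4 genes passed in a comparison where 773 of 11647 genes tested did (6.64%), 344 higher and 429 lower in interneuron-like cells. Without the library block the differences of NR3C2, THRB and RORA were 2.17, 1.57 and 1.13, with edgeR adjusted p = 0.0942, 0.25 and 0.482, and 32 genes passed.

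**Figure D3:**
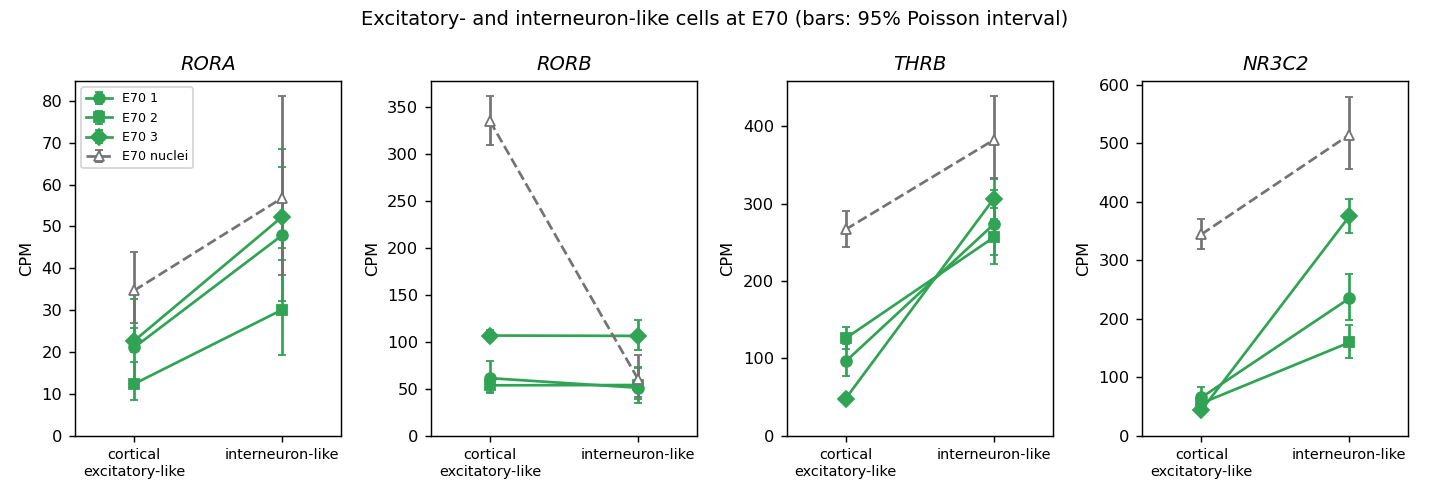
CPM (vertical axis) in cortical excitatory-like and interneuron-like cells (horizontal axis) of the 3 E70 whole cell libraries (filled, joined by solid lines) and of the E70 nuclei (open, dashed), with 95% Poisson intervals. RORA, THRB and NR3C2 are higher in interneuron-like cells of every whole cell library, while RORB is nearly level in whole cells and lies in nuclei at 335.0 CPM in excitatory-like against 60.6 CPM in interneuron-like cells.

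Over all 11647 genes tested, 344 were higher and 429 lower in interneuron-like cells, 6.64% together. Of 32 tested nuclear receptors 4 were higher. They were THRB, RORA, NR3C2 and NR3C1, the last by 1.10 (SE 0.266, edgeR adjusted p = 0.0274). Without the library block 32 genes passed, and THRB, RORA and NR3C2 were not among them. NR2F1, which encodes an orphan receptor of cortical patterning, was lower by −0.84 (edgeR adjusted p = 0.0208), and the median over the receptors was 0.12 beside −0.04 over all genes tested. Of 11 clock genes, the group in which ROR targets lie, none passed. Of 14 thyroid hormone genes NCOA2, a coactivator of nuclear receptors, was higher (0.60) and CRYM, whose product binds thyroid hormone in the cytosol, was lower (−3.23). Of 12 corticosteroid genes NR3C1, NCOA2 and ZBTB16, a known target of glucocorticoids, were higher, ZBTB16 by 2.23. It was at 28.5, 26.1 and 21.9 CPM in cortical excitatory-like and 75.1, 86.7 and 196.0 CPM in interneuron-like cells.

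The interneuron-like class consisted of 2 clusters, and they differed in NR3C2 and THRB (the plot of both clusters by library). One was led by DLX1, DLX5, ERBB4 and VIP, of which VIP is known from interneurons of the caudal ganglionic eminence, and the other by CORT and NXPH1, genes known from interneurons of the medial ganglionic eminence. DLX1, DLX5 and ERBB4 were among the leading genes of both. NR3C2 was at 546.0, 317.6, 258.5 and 627.2 CPM in the ERBB4-led cluster of E60_3, E70_1, E70_2 and E70_3, and at 86.6, 81.9, 81.1 and 93.3 CPM in the CORT-led cluster. THRB was at 439.6, 359.5, 369.3 and 451.5 CPM against 137.6, 113.8, 166.6 and 143.1 CPM. The E70 nuclei lay on the same sides, with 581.7 against 138.1 CPM for NR3C2 and 416.8 against 188.3 CPM for THRB. Neither gene overlapped between the clusters in these 5 libraries. How large a share of all genes was apart in the same way was not counted, so this is not shown to be particular to them.

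RORA had 53.2, 49.2, 34.1 and 67.8 CPM in the ERBB4-led and 36.9, 45.5, 27.0 and 34.8 CPM in the CORT-led cluster of the 4 whole cell libraries, and 62.4 against 25.1 CPM in the E70 nuclei. It was higher in the ERBB4-led cluster of each of these 5 libraries, with overlapping counting intervals in E60_3, E70_1, E70_2 and the nuclei and separate ones in E70_3. RORB had 63.8, 49.2, 39.8 and 97.9 CPM against 73.9, 54.6, 65.3 and 115.7 CPM, and 57.9 against 75.3 CPM in the nuclei, higher in the CORT-led cluster of each library with overlapping counting intervals. These clusters were picked after their values were seen, and no test was made between them.

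**Figure D4:**
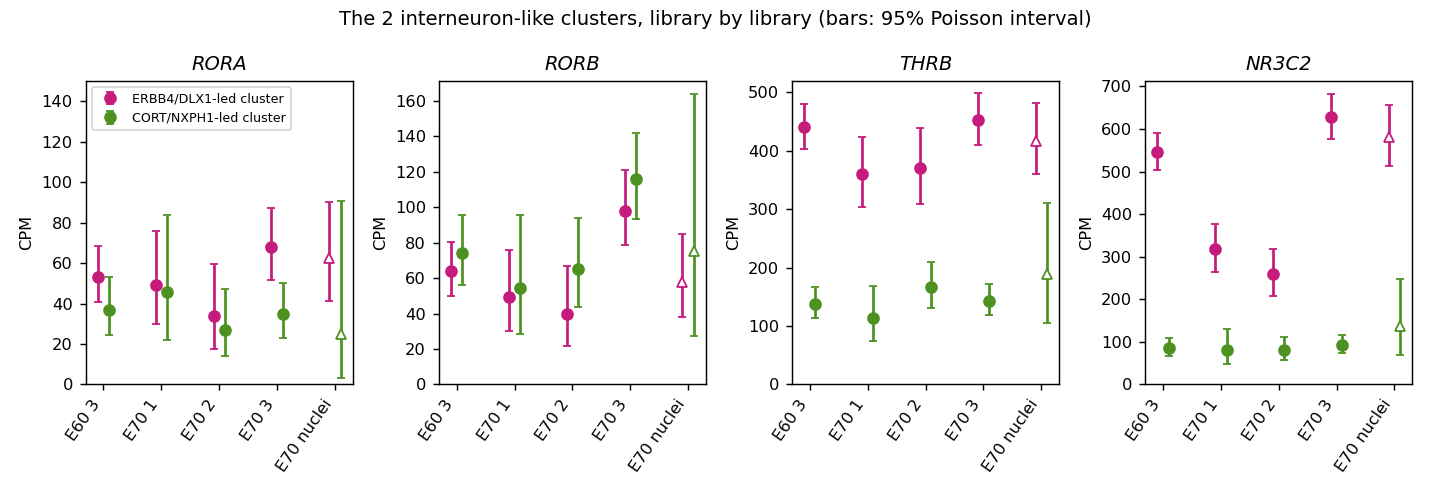
CPM (vertical axis) in the ERBB4/DLX1-led (magenta) and the CORT/NXPH1-led (green) interneuron-like cluster of each library (horizontal axis), with 95% Poisson intervals, circles for whole cells and triangles for nuclei. The intervals of NR3C2 and THRB are apart in all 5 libraries, those of RORA in E70_3 alone and those of RORB in none.

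Nuclei and whole cells were set side by side at E70, with 1 library of nuclei and so no test. NR3C2 was 3.68-fold higher in nuclei (335.4 CPM against 72.4 to 110.9 in the 3 whole cell libraries), THRB 2.21-fold higher (286.8 against 103.2 to 152.7 CPM) and RORB 1.85-fold higher (271.9 against 47.2 to 250.5 CPM), each above all 3 whole cell libraries. RORA, at 56.3 CPM, lay within their range of 27.8 to 70.2 CPM. The log2 difference of RORB, 0.88, was 1.502 without E70_1 and 0.46 without E70_2, and that of RORA, 0.20, was −0.08 without E70_2. Of 11690 genes compared 17.4% were higher in nuclei by 2-fold or more. Scaled by TMM in place of the total UMIs, the log2 difference of THRB went from 1.14 to 0.75 and that of NR3C2 from 1.87 to 1.49.

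Long genes as a group were higher in the nuclei. Over the 9940 genes with a known span, 85.0% of those compared, the 1118 genes longer than 200 kb had a median log2 difference of 0.83 and 41.9% of them were higher by 2-fold or more, against medians of −2.64 for the 1269 genes under 10 kb and −0.02 for all. RORA at 0.20, RORB at 0.88, THRB at 1.14 and NR3C2 at 1.87 belong to the longest class. At E70, over the whole libraries, THRB and NR3C2 thus lay above the median of long genes, RORB near it and RORA below it. Within classes the median of long genes was 0.80 in excitatory-like, 0.62 in interneuron-like and 0.56 in intermediate progenitor-like cells, and THRB, at 0.46, lay below it in interneuron-like cells. The part that gene span and cell composition have in these differences was not tested.

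Within classes the difference depended on the cells. In cortical excitatory-like cells the nuclei exceeded the mean of the whole cell libraries 6.28-fold for NR3C2 (344.5 against 54.9 CPM), 4.53-fold for RORB (335.0 against 73.9 CPM), 2.96-fold for THRB (266.7 against 90.1 CPM) and 1.85-fold for RORA (34.7 against 18.8 CPM), where 18.4% of genes were higher by 2-fold or more. In interneuron-like cells the ratios were 2.01 for NR3C2 and 1.37 for THRB, with RORB at 60.6 CPM within the whole cell range of 51.1 to 106.3 CPM, and 15.6% of genes were higher by 2-fold or more. In intermediate progenitor-like cells RORB was 2.30-fold higher while NR3C2, at 59.7 CPM, lay below the whole cell range of 65.7 to 82.9 CPM, beside 17.0% of genes.

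Most excitatory-like nuclei lay in a cluster with few whole cells. This cluster, led by ARPP21 and ST6GALNAC5, held 283 of the 372 excitatory-like E70 nuclei but 3 of the E70 whole cells. Whether the preparations held different cells or were merged incompletely was not tested. In clusters with 20 or more cells in both preparations, compared after seeing the data, the ratios of NR3C2 ranged from 0.783 in an astrocyte and radial glia-like cluster (22 nuclei) to 4.96 in an oligodendrocyte precursor-like one (21 nuclei), and it was 1.45 in the ERBB4-led interneuron-like cluster. For RORB the ratio was 2.39 in the EOMES-led progenitor cluster, 3.53 in an unnamed cluster led by KCNIP3 and IGFBP5, 2.58 in a SEMA3C and SLIT2-led excitatory cluster (20 nuclei) and 0.693 in an NTS and FEZF2-led one (61 nuclei). In these 2 excitatory clusters the NR3C2 ratios were 2.52 and 1.64, below the 6.28 of the whole class. The THRB ratios were 0.797 and 4.23, the former below and the latter above the 2.96 of the whole class.

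Clustering the E70 nuclei on their own placed most of the RORB and much of the NR3C2 UMIs in single clusters (the plot of clusters of E70 nuclei). A cluster of 87 nuclei led by ARPP21, ST6GALNAC5 and NWD2 had a RORB level of 1298 CPM (95% Poisson interval 1192 to 1411). It was 65.7% of the RORB UMIs of the library, while the other 9 clusters were at 35.8 to 380.0 CPM. NR3C2 was highest in 87 nuclei led by ERBB4, VIP and RELN, at 985 CPM (859 to 1124), where THRB was also highest at 591 CPM. A cluster of 116 nuclei led by CDH9, 84 of them excitatory-like in the merged clusters, had 718 CPM of NR3C2 (648 to 792), 37.6% of its UMIs in the library, and 62.6 CPM of RORB. The CDH9-led and the ERBB4-led cluster were given no class when the nuclei were clustered on their own. In the RORB-rich cluster NR3C2 was at 228 CPM and THRB at 463 CPM. High RORB and the 718 CPM of NR3C2 thus lay in different clusters of this library, each mostly excitatory-like in the merged clusters. These are cells of 1 library and the clusters were picked after their values were seen.

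**Figure D5:**
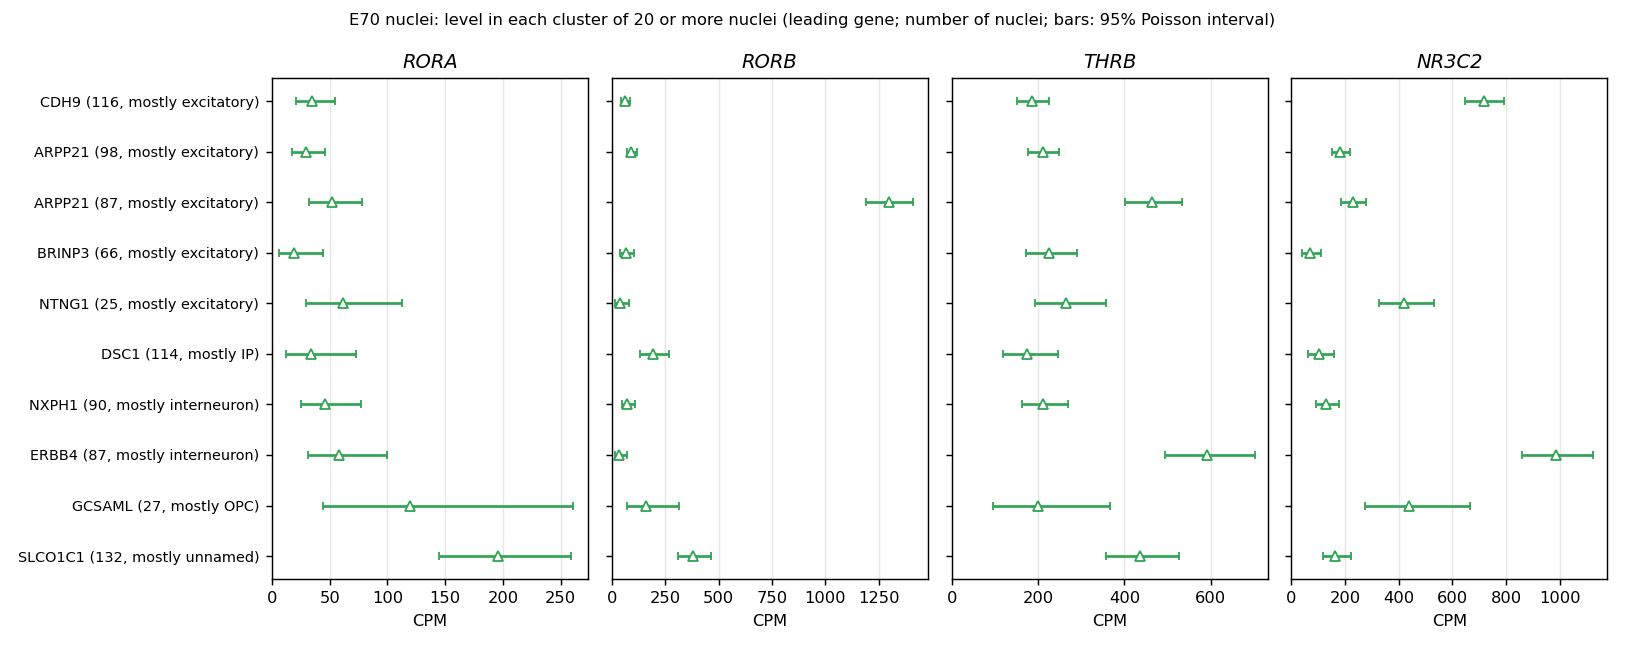
CPM (horizontal axis) in each cluster of 20 or more E70 nuclei (vertical axis, named by the first leading gene with a symbol, number of nuclei and the class most of them have in the merged clusters), with 95% Poisson intervals. RORB reaches 1298 CPM in 1 cluster named excitatory-like. NR3C2 reaches 985 and 718 CPM in clusters given no class of their own, mostly interneuron-like and mostly excitatory-like in the merged clusters.

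The adult was represented by 1 library of whole cells and 1 of nuclei, so no test was made. THRB and NR3C2 were 2.25- and 2.23-fold higher in adult nuclei than in adult whole cells (332.1 against 147.4 and 335.9 against 150.7 CPM), where 26.4% of genes were higher by 2-fold or more. Under TMM scaling their log2 differences were 0.80 and 0.78 in place of 1.17 and 1.15, so neither was 2-fold higher. The 1116 genes longer than 200 kb had a median of 1.20, with 61.2% of them higher by 2-fold or more, and both genes lay just under that median. RORA and RORB were lower in the nuclei, with ratios of 0.519 and 0.782. Vascular-like cells, which carried most RORA in the whole cells, were 0.118% of the adult nuclei, and oligodendrocyte-like nuclei were 67.7% of them. Without vascular-like and erythroid-like clusters the log2 difference of RORA was 0.21 in place of −0.94.

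In oligodendrocyte-like cells all 4 genes were higher in adult nuclei, RORA 2.68-fold (71.7 against 26.8 CPM), RORB 2.95-fold (25.4 against 8.59 CPM), THRB 3.78-fold (171.8 against 45.5 CPM) and NR3C2 3.74-fold (308.0 against 82.3 CPM), beside 35.7% of all genes and 71.4% of those longer than 200 kb higher by 2-fold or more. Their log2 differences of 1.39, 1.46, 1.90 and 1.89 compare with a median of 1.36 for the long genes. In microglia-like cells NR3C2 was at 332.2 against 169.3 CPM, and the ratios were 1.72 for THRB, 0.822 for RORB and 0.668 for RORA, none of the 4 at 2-fold, beside 28.4% of genes. Excitatory-like adult nuclei (71) had 742.7 CPM of THRB and 323.6 CPM of NR3C2, and interneuron-like adult nuclei (53) had 661.2 and 387.2 CPM. No adult whole cell class of these neurons had 20 cells to compare them with.

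Against the 3 E70 whole cell libraries the adult whole cells had 2.78 times the mean RORA level (136.1 CPM against 27.8 to 70.2), where 17.1% of 12382 genes were higher by 2-fold or more, and 1.65 times that of NR3C2 (150.7 against 72.4 to 110.9 CPM). Both lay above all 3 E70 libraries. RORB had 0.342 times the E70 mean, where 10.9% of genes were lower by 2-fold or more, but its adult level of 50.4 CPM lay within the E70 range of 47.2 to 250.5 CPM. The RORB log2 difference, −1.53, was −0.91 without E70_1 and −1.95 without E70_2. THRB, at 147.4 CPM, also lay within the E70 range. Without vascular-like and erythroid-like clusters the RORA log2 difference was 0.37 in place of 1.46. In whole tissue sums, more cells of a class and more RNA per cell cannot be told apart.

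Genes with the most similar pattern were sought by Pearson's r of log2(CPM + 1) over 55 sums of 1 library and 1 class, which share libraries and depth and so are not independent. For RORA they were PTPRM (0.847), PLCB4 (0.798), ENSSSCG00000026167 (0.789), PRICKLE2 (0.789) and SEC62 (0.769). For RORB they were WDR17 (0.816), DTNA (0.813), ST6GAL2 (0.812), MSI1 (0.807) and CTNND2 (0.806). For THRB they were ANGPT1 (0.857), NR3C2 (0.827), SPON1 (0.826), TEX9 (0.823) and ARHGAP42 (0.81), and for NR3C2 they were THRB (0.827), BMP6 (0.822), ANGPT1 (0.806), EYA1 (0.801) and ENSSSCG00000036148 (0.796). THRB and NR3C2 were thus each among the 5 genes most like the other. RORA and RORB, whose printed stretches encode the same amino acids, had r = 0.391 with each other, and both were below 0.6 with THRB and with NR3C2.

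Single cells with both transcripts were counted after drawing down to 1000 UMIs. In interneuron-like cells THRB and NR3C2 were seen together in 8.03% of 249 cells of E60_3, 0.943% of 106 cells of E70_2, 5.59% of 304 cells of E70_3 and 13.1% of 176 E70 nuclei, where the product of the single shares was 4.76%, 1.68%, 4.36% and 7.59%. The joint share was above the product in 3 of these and below it in E70_2. The class pools the ERBB4-led cluster, higher in both genes, with the CORT-led one, and pairs were not counted within each cluster. What the pooling adds to the joint share was not tested. In photoreceptor- or pineal-like cells of E50_1 RORA and RORB were seen together in 2.04% of 147 cells, where the product of their shares was 2.42%. These are sparse counts, at most 23 cells for a pair in the classes named here.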

How the data were processed

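The deposited files hold, for each of the 10 libraries, the number of UMIs per gene and cell, raw counts made by the authors from 10X Genomics 3′ reads with Cell Ranger (version 2.20 in the submitters' processing notes) on Sscrofa11.1, with intronic reads counted. In these files cells had already been selected. RORA, RORB, THRB and NR3C2 and the gene lists were chosen with earlier results of these data known. Named genes were these 4, list genes past the threshold (up to 6 per direction between E60 and E70, where none passed) and the 5 most similar genes of each of the 4. List genes named beyond this rule (THRA, NR2E3, NR3C1, NR1H3, the RXR genes, ESRRG, HR, CIART, HSD11B1, HSD11B2) and the list genes named between classes were chosen after their values were seen.

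Libraries were grouped by their labels. Cells were scaled to 10000 UMIs, and 3000 variable genes, without the 89 list genes in the files, gave 50 principal components that were merged by mutual nearest neighbours (20) and clustered by Louvain (resolution 1.6) with scanpy 1.11.5, scikit-learn 1.9.0 and igraph 0.11.9 in Python 3.11.15. Doublets (1199 called with Scrublet) were kept. CPM are sums of UMIs over a library or class, with 95% exact Poisson intervals, and shares have Clopper-Pearson intervals. Both cover counting error only. UMIs summed per library (or library and class, 20 cells or more) were tested with edgeR 4.0.16 in R 4.3.3 (TMM, filterByExpr, quasi-likelihood, Benjamini-Hochberg over all genes, threshold 0.05), checked on simulated counts. Fits in which leaving out libraries left 1 at a stage are given by their difference only. With 1 library in a group from the start no test was made. A gene then counted as past the fold at 2-fold with a CPM of 10 or more in either group, with 1 CPM added. Pairs with astrocyte and radial glia-like cells could not be tested at E70, with under 20 cells in E70_1 and E70_2. Replicate numbers were not taken to pair the libraries, since same-numbered libraries did not deviate together (correlations −0.15, 0.05 and −0.08), although those numbered 1 and those numbered 3 each shared a sequencing pool. Alternatives were DESeq2 1.42.0, other scaling, filters, libraries, cells and clusterings. Sequences came from the RefSeq genome and annotation of the same build.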

Additional observations from a re-analysis of the deposited data

How the results depend on the processing

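Log2 differences are given as in the report. Between E60 and E70, leaving out each library in turn gave −1.23 to −0.63 for RORA, 0.17 to 1.12 for RORB, −0.60 to 0.15 for THRB and −0.62 to −0.28 for NR3C2, and 0 to 5902 genes past the threshold. THRB turned without E60_1 (0.15), THRB and NR3C2 without E60_1 and E60_2 (0.559 and 0.135) and within the pool of E60_3 and E70_3 (0.232 and 0.129), and RORB turned without photoreceptor- or pineal-like clusters (−0.306, chosen after seeing the data). DESeq2 called 2833 genes. With the replicate numbers as a replicate block, RORA was −0.974, RORB 0.511, THRB −0.179 and NR3C2 −0.372, with 0 genes past the threshold, and the block changed no call of the 4 genes. In microglia-like cells leaving out a library gave −2.40 to 0.239 for THRB, −0.70 to 0.308 for NR3C2 and 0 to 156 genes. In erythroid-like cells it gave −0.90 to 0.498 for RORB, −0.65 to 0.217 for THRB, −0.42 to 0.31 for NR3C2 and 0 to 1058 genes, while DESeq2 size factors, the replicate block and clusters of each library gave 0 genes and doublet removal 1. Between the E70 neuron classes, fits without the replicate block gave 1.134 for RORA, 1.569 for THRB and 2.167 for NR3C2, none past the threshold, and 32 genes, clusters of each library turned RORB to 0.276, and the calls of the other 3 held without any 1 library (590 to 825 genes). With a library left out, the blocked fit has very little spread left to measure, so it cannot show that these calls are robust. TMM scaling gave 0.752 for THRB and 1.491 for NR3C2 in E70 nuclei, and −1.298, −0.704, 0.798 and 0.783 for RORA, RORB, THRB and NR3C2 in adult nuclei. Without erythroid-like and vascular-like clusters RORA was 0.207 in adult nuclei and 0.368 in the adult against E70. Clusters of each library moved the CPM of RORA in Purkinje-like cells of E60_1 to 178.9, of RORB in photoreceptor- or pineal-like cells to 629.9 in E70_1 and 1309 in E70_3 and in excitatory-like E70 nuclei to 1298, and of THRB in astrocyte and radial glia-like cells of E60_1 to 464.7. Drawn down to 2000 UMIs, where shares rise with depth, RORA was seen in 55.1% and 64.4% of Purkinje-like cells of E50_1 and E60_1 and 18.4% of vascular-like cells of E60_1, RORB in 74.1% and 90.9% of photoreceptor- or pineal-like cells of E50_1 and E70_3 and 25.5% of excitatory-like E70 nuclei, THRB in 31.9% of interneuron-like cells of E70_3 and 51.2% of astrocyte and radial glia-like cells of E60_1, and NR3C2 in 31.6% of interneuron-like cells of E70_3 and 28.4% of adult microglia-like cells. The cause of other moves was not tested. Louvain resolution 0.8 gave no comparison of the neuron classes, and clusters of each library none of microglia-like cells between stages. Depth limits the adult nuclei most, with a median of 690 UMIs.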
